A study of Homo sapiens with 4 samples.

Results

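The HOX genes of DLD-1 human colorectal cancer cells were examined on single-color Human OneArray Plus arrays of cells that overexpressed miR-21 or carried the empty vector. All probes whose only gene symbol was that of a HOX cluster gene were taken, which gave 45 of 31741 probes, for 38 genes. Cluster A, on chromosome 7, held 10 of these genes with 14 probes, and cluster B, on chromosome 17, held 10 genes with 12 probes. Cluster C, on chromosome 12, held 9 genes with 10 probes, and cluster D, on chromosome 2, held 9 genes with 9 probes. The DLD-1-miR-21 line was made by stable transfection with a plasmid that encodes human miR-21, and the DLD-1-miR-Vec line (called DLD-1-vector by the study) with its control plasmid pCMV-MIR. Both lines carried a GFP reporter, had been selected with G418, and were pools of picked clones, so neither is untransfected DLD-1. The RNA of each line was put on 2 arrays, without any drug treatment. No label tells if these were separate cultures. The p-values below therefore reflect only how far arrays of a line differ, and that difference may be technical. For each probe, limma takes this spread partly from the probe itself and partly from all probes.

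HOX genes encode transcription factors that bind DNA through a homeodomain. They stand in clusters in which the order of the genes along the chromosome, numbered as paralog groups from 1 at one end to 13 at the other, follows the head-to-tail order of the body regions where they act in the embryo. The low numbers act in the hindbrain and neck, the middle ones in the trunk, and the highest in the hindgut, the tail and the genital tract. The adult gut keeps regional HOX patterns, and colorectal tumor cells usually retain some of them. HOX proteins bind DNA together with TALE partners (PBX, MEIS and PKNOX proteins). Polycomb complexes keep silent HOX genes off, and MLL (trithorax) complexes keep active ones on. The caudal-type factors CDX1 and CDX2 are upstream regulators in the intestine.

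The mature miR-21-5p that the plasmid encodes is shown first because it is the only difference intended between the lines. Capitals mark its seed (bases 2 to 8), with which it finds target mRNAs.
hsa-miR-21-5p: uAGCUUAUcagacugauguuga
Mature miR-21 was not analysed here. Of 2 probes of its known target PDCD4, one fell in DLD-1-miR-21 cells (log2 ratio -0.65, adjusted p = 0.022 from limma) and the other had -0.08 (adjusted p = 0.617). The probe that fell was dim, with intensities of 108 and 117 in DLD-1-miR-Vec cells against 62 and 46. All 4 lay under the olfactory receptor medians given below. The other probe was brighter, with 781 and 846 against 778 and 753.

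Promoter windows are shown for HOX genes that passed the test below. RefSeq gave a window from 250 bases before to 50 after a start site (GRCh38.p14) for 20 of the 38 genes, 26 windows in all. Of the genes that fell, HOXA6 (chr7:27147725-27148024, minus strand) and HOXA13 (chr7:27200042-27200341, minus strand) are given. Of those that rose, the window of HOXC5 (chr12:54016638-54016937, plus strand), which is also that of HOXC4, and the window of HOXD11 (chr2:176107030-176107329, plus strand) are given. Capitals mark every match on either strand to ATAAA, the core of sites bound by CDX factors, to TGATNNAT, a site bound by PBX with HOX proteins, or to TATAAA, the TATA box, which contains ATAAA.
HOXA6: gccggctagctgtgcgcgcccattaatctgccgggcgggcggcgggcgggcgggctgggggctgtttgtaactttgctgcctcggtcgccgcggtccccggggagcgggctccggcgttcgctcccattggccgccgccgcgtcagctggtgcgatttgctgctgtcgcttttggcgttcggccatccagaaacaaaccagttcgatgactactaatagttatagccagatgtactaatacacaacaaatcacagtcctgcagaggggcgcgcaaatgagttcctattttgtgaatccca
HOXA13: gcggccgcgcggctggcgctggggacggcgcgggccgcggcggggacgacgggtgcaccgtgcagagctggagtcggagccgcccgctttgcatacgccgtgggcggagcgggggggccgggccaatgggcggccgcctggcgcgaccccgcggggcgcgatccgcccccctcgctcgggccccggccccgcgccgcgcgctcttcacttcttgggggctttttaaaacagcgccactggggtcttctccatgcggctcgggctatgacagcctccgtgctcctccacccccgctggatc
HOXC5: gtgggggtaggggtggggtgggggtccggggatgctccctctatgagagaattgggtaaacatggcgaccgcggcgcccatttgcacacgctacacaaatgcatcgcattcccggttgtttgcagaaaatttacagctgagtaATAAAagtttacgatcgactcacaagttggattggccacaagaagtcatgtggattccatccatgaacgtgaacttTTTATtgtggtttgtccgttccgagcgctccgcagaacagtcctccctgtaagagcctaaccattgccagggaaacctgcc
HOXD11: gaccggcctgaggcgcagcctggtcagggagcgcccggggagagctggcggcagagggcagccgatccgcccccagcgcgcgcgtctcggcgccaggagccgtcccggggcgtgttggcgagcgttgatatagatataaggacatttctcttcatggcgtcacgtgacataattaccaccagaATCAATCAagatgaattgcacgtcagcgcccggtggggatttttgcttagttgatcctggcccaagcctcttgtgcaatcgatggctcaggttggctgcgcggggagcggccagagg
The windows of HOXA6 and HOXA13 held no match to these letters. The shared window of HOXC4 and HOXC5 held 2 matches to ATAAA, and that of HOXD11 held 1 match to TGATNNAT. The windows not printed of genes that passed did not follow this split. HOXA10 fell, and both of its windows held ATAAA and TATAAA. HOXA7, which fell, and HOXD12, which rose, held no match. ATAAA was found in 14 of the 26 HOX windows and in 35.0% of all 34943 windows, TGATNNAT in 3 of 26 and 7.42%, and TATAAA in 5 of 26 and 11.6%. HOXA3 has more of the HOX windows than any other gene, most of them with ATAAA. From cluster B only HOXB1 has a window. HOX windows had a median of 22.5 CpG dinucleotides against 14 over all windows, and HOXA13 had 44. These are matches of letters only.

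Before normalization, arrays of DLD-1-miR-Vec cells had medians of 571 and 571, and those of DLD-1-miR-21 cells 255 and 339. All values below are quantile-normalized intensities, and log2 ratios are taken over DLD-1-miR-Vec, so that a negative one is a fall in DLD-1-miR-21 cells, after 50 was added, which understates the change of dim probes. Without this normalization the median log2 ratio of all probes was -0.63. The median intensity of 293 olfactory receptor probes, genes of smell neurons, ranged from 203 to 334 over the arrays and their 95th percentile from 2898 to 5481. On all 4 arrays 25 HOX probes lay above that median and 5 above that percentile, while 12 lay below the median on every array, among them 7 of the 9 probes of cluster D. Probes differ in brightness, so these values do not rank the transcripts. The plot of signal by array shows all members.

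**Figure D1:**
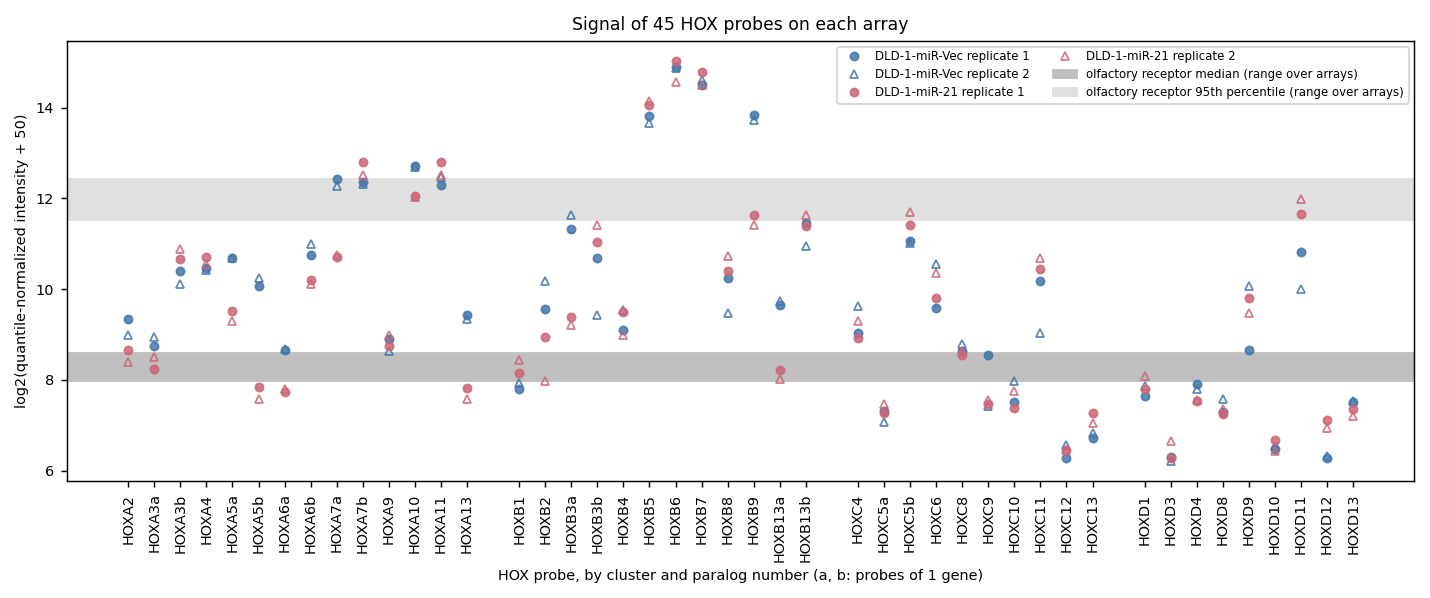
Signal of the 45 HOX probes on each of the 4 arrays, as log2 of the quantile-normalized intensity + 50, by cluster and paralog number; circles are replicate 1 and triangles replicate 2, blue DLD-1-miR-Vec and red DLD-1-miR-21. The gray bands give the range over arrays of the median (203 to 334 before log2) and the 95th percentile (2898 to 5481) of olfactory receptor probes, and the red points of HOXA5, HOXA13, HOXB9 and probe a of HOXB3 lie below the blue ones.

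In DLD-1-miR-21 cells 11 HOX probes of 9 genes fell and 3 probes of 3 genes rose, at an adjusted p under 0.05 from limma. The falls were HOXA5, HOXA6, HOXA7, HOXA10 and HOXA13 of cluster A and HOXB2, HOXB3, HOXB9 and HOXB13 of cluster B. The rises were HOXC5 of cluster C and HOXD11 and HOXD12 of cluster D. The other 31 probes did not pass, with log2 ratios from -0.64 to 1.18. Of all probes on the arrays, 21.8% fell and 23% rose (44.8% in either direction), against 24.4% and 6.67% of the HOX probes. The share of HOX probes that fell was therefore near that of all probes. Calls grew with signal: with all probes split by mean signal into 4 equal parts, 26.3%, 43.4%, 52.1% and 57.2% passed from the dimmest to the brightest, against 1 of 8, 3 of 12, 5 of 14 and 5 of 11 HOX probes. The median log2 ratio was 0.01 over the HOX probes and 0.07 over all probes. The arrays of the lines did not overlap for 15 HOX probes that were lower and 13 that were higher, where 34.8% and 41.4% of all probes were so. With 2 arrays against 2, an exact two-sided permutation test of a single probe cannot go below p = 0.333. In RNA of a whole culture, fewer cells that make a transcript and less of it per cell cannot be told apart.

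By cluster, 7 of 14 probes of cluster A and 4 of 12 of cluster B fell, and 0 of either rose. In cluster C 0 of 10 fell and 1 rose, and in cluster D 0 of 9 fell and 2 rose. The shares over all probes at this threshold were 21.8% and 23%. At an unadjusted p under 0.05 from limma, 13 of 45 HOX probes were lower and 7 higher, where 8045 and 9229 of all 31741 probes were so. The clusters had median log2 ratios of -0.65, 0.00, 0.02 and 0.19, from A to D, and the difference between clusters was not tested. Signal, with which calls grew, also differed, with median log2 values of 10.28, 10.51, 8.2 and 7.4 from A to D. Its part in the counts per cluster was not tested. Over paralog groups 1 to 4, 2 of 13 probes fell and 0 rose. Over groups 5 to 9 these counts were 6 and 1 of 19, and over groups 10 to 13 they were 3 and 2 of 13. On 1 probe per gene the paralog number and the log2 ratio had a Spearman correlation of 0.04 across 38 genes. Within clusters it was -0.285 in A and -0.16 in B, with 10 genes each, and 0.35 in C and 0.18 in D, with 9 each. Genes are not independent replicates and were read on the same arrays, so these are descriptions.

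**Figure D2:**
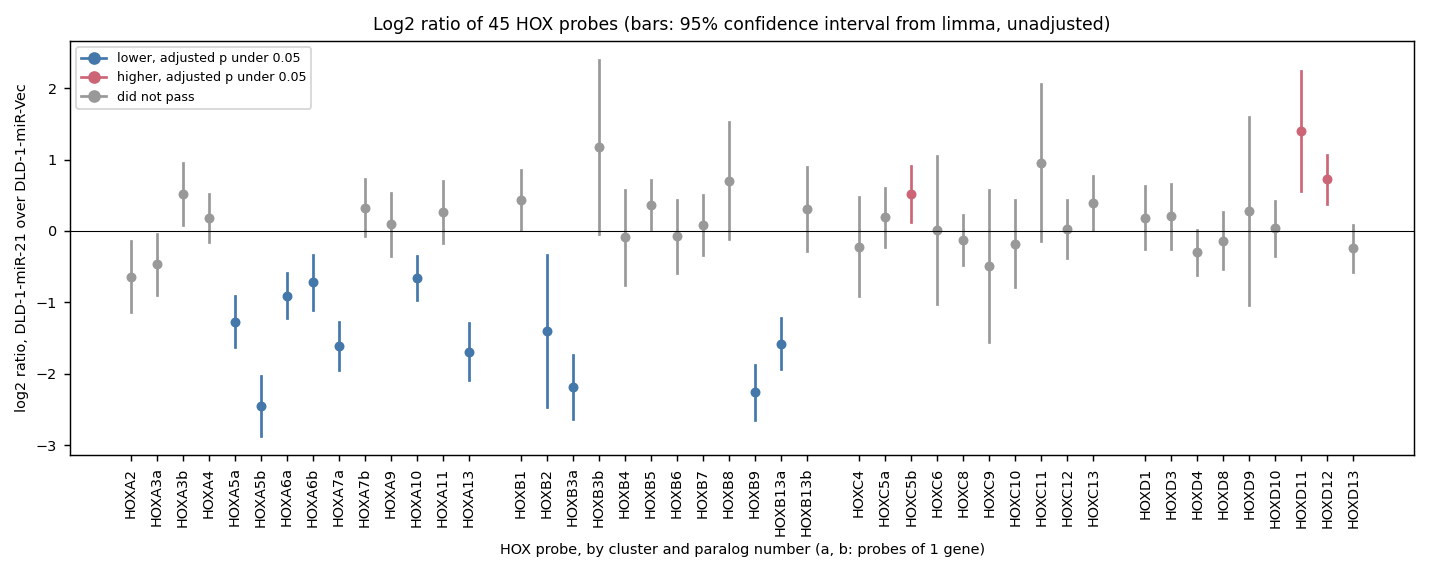
Log2 ratio (DLD-1-miR-21 / DLD-1-miR-Vec) for each of the 45 HOX probes, by cluster and paralog number, with the unadjusted 95% confidence interval from limma; blue marks the 11 probes that fell, red the 3 that rose and gray the 31 that did not pass. The blue points lie in clusters A and B and the red ones in C and D.

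HOXA5, which is known to oppose stem cell traits in the colon, fell on both of its probes. Its probe b (PH_hs_0035417) had intensities of 1030 and 1157 in DLD-1-miR-Vec cells, against 181 and 140 in DLD-1-miR-21 cells. Probe a (PH_hs_0002929) had 1593 and 1597 against 686 and 582. Neither probe overlapped between the lines. The values of probe b in DLD-1-miR-21 cells lay below the olfactory receptor medians of those arrays, so its ratio is less certain than that of probe a. The log2 ratios were -2.45 (SE 0.16, adjusted p = 0.00231 from limma) and -1.27 (SE 0.14, adjusted p = 0.00468), the latter 2.41-fold lower. HOXA6, its neighbor, which acts in the trunk of the mouse embryo, also fell on both probes. Probe a (PH_hs_0013139) went from 357 and 360 to 164 and 173, and probe b (PH_hs_0032307) from 1680 and 1982 to 1128 and 1053. The log2 ratios were -0.905 (SE 0.12) and -0.72 (SE 0.14), and probe a lay below the olfactory receptor medians of the DLD-1-miR-21 arrays.

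HOXA13, the last gene of the cluster, is needed for hindgut, limb and genital development in the mouse. Its probe (PH_hs_0024985) had 644 and 598 on the DLD-1-miR-Vec arrays against 178 and 140, which lay below the olfactory receptor medians of those arrays (log2 ratio -1.69, SE 0.15, adjusted p = 0.0033 from limma). HOXA10, known for its role in the uterus, had 6637 and 6499 against 4202 and 4105 (PH_hs_0006089). The arrays of each line lay close together, and the fall was 1.57-fold (log2 ratio -0.66, SE 0.12, adjusted p = 0.0141). HOXA11 between them, which acts in kidney and limb development, did not pass: its probe (PH_hs_0013211) had 5001 and 5673 against 7086 and 5787, a log2 ratio of 0.26 with an interval from -0.17 to 0.70. On 1 probe per gene and with quantile normalization, HOXA11 thus did not fall with its neighbors. Without normalization between arrays, where the median of all probes was -0.63, each of these genes passed as lower. The log2 ratios were then -0.99 for HOXA11, -1.93 for HOXA10 and -2.33 for HOXA13.

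The middle and front of cluster A were mixed. Probe a of HOXA7 (PH_hs_0021926), a gene of the trunk region, fell from 5427 and 4874 to 1619 and 1678 (log2 ratio -1.61, SE 0.13, adjusted p = 0.00278 from limma). Its probe b (PH_hs_0038546) had 5172 and 5025 against 7061 and 5809 (log2 ratio 0.33, SE 0.15, adjusted p = 0.141). HOXA2, a hindbrain gene, had 599 and 460 against 358 and 285, just short of the threshold (log2 ratio -0.64, adjusted p = 0.0516). The probes of HOXA3 had log2 ratios of -0.47 and 0.52, HOXA4 had 0.18 and HOXA9 0.09, and none of them passed. A further probe, which carries HOXA9 together with a read-through symbol, was not counted.

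In cluster B HOXB9, which in the mouse patterns the thoracic skeleton, fell. Its probe (PH_hs_0023790) had 14526 and 13524 in DLD-1-miR-Vec cells, against 3127 and 2665 in DLD-1-miR-21 cells. All 4 arrays lay well above the olfactory receptor median, and the fall was 4.79-fold (log2 ratio -2.26, SE 0.14, adjusted p = 0.00223 from limma). HOXB5, HOXB6 and HOXB7, a few genes away and among the 8 HOX probes of highest intensity, did not pass. HOXB5, which is known for its role in the enteric nervous system, had 14358 and 12916 against 17047 and 18163 (PH_hs_0022664, log2 ratio 0.37, interval 0.02 to 0.71, adjusted p = 0.0786). HOXB6 had 30369 and 29691 against 33438 and 24301 (PH_hs_0005427, log2 ratio -0.07, interval -0.59 to 0.44). For HOXB7 the values were 23141 and 25041 against 28242 and 23028 (PH_hs_0025481, log2 ratio 0.08, interval -0.33 to 0.50). The lines overlapped for HOXB6 and HOXB7, and the intervals exclude a fall of the size seen for HOXB9. HOXB8, which stands between them and HOXB9, had 1165 and 662 against 1293 and 1660 (log2 ratio 0.71, adjusted p = 0.126).

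HOXB3, a hindbrain gene, gave opposite readings on its probes. Probe a (PH_hs_0009407) fell from 2513 and 3141 to 622 and 542 (log2 ratio -2.18, SE 0.17, adjusted p = 0.00269 from limma). Probe b (PH_hs_0026729) had 1593 and 633 against 2049 and 2687, with a log2 ratio of 1.18 that did not pass (SE 0.46, adjusted p = 0.0991). On probe b the DLD-1-miR-Vec arrays differed by 1.27 log2 units from each other. HOXB13, a posterior gene known from prostate and distal colon, was similar. Its probe a (PH_hs_0027141) fell from 757 and 802 to 246 and 211 (log2 ratio -1.58, SE 0.13, adjusted p = 0.00306), while probe b (PH_hs_0048502) had 2747 and 1929 against 2609 and 3122 (log2 ratio 0.30, adjusted p = 0.313). In DLD-1-miR-21 cells probe a lay below the olfactory receptor medians. HOXB2, which specifies hindbrain segments, had 704 and 1102 against 444 and 203 (PH_hs_0023524). Neither line was tight, and the log2 ratio of -1.40 passed narrowly (SE 0.40, adjusted p = 0.0472).

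Of the 7 HOX genes with 2 probes, 3 (HOXA5, HOXA6 and HOXC5) had probes of the same sign and 4 (HOXA3, HOXA7, HOXB3 and HOXB13) of opposite sign. Both probes passed for 2 genes, 1 probe for 4 and neither for 1. The difference between the probes of a gene ranged from 0.19 for HOXA6 to 3.36 log2 units for HOXB3. In no gene did one probe pass as lower and the other as higher. Where the probes lie in their transcripts is not given in the tables used here, so splice forms were not examined. With the probe of highest mean intensity alone for each gene, 6 genes were lower and 3 higher. That mean is over all 4 arrays, so a fall itself lowers it. HOXA7, HOXB3 and HOXB13 were then read on the probe that did not pass. In DLD-1-miR-Vec cells alone the probes of HOXA7 were alike (5427 and 4874 for a, 5172 and 5025 for b). Probe a of HOXB3 was the brighter there (2513 and 3141, against 1593 and 633). Probe a of HOXB13 was the dimmer (757 and 802, against 2747 and 1929).

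**Figure D3:**
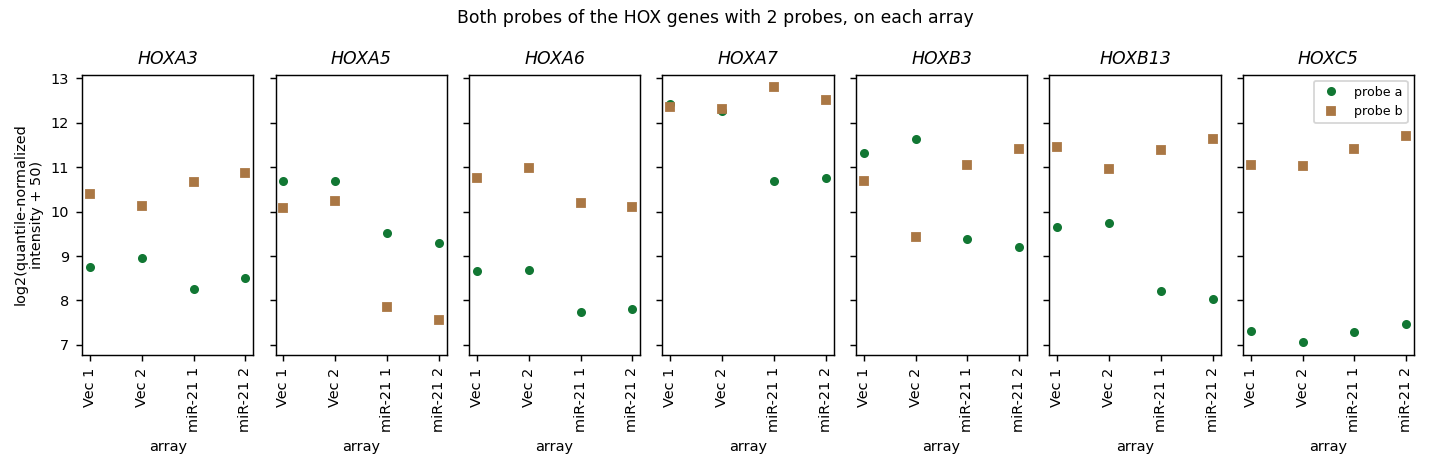
Log2 of quantile-normalized intensity + 50 of both probes of the 7 HOX genes with 2 probes, on the 2 DLD-1-miR-Vec arrays (Vec) and the 2 DLD-1-miR-21 arrays (miR-21); green circles are probe a and brown squares probe b. HOXA5 and HOXA6 fall on both probes, while HOXA7, HOXB3 and HOXB13 fall on probe a only.

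In cluster D HOXD11, which patterns the forearm in the mouse, rose. Its probe (PH_hs_0019723) had 1764 and 978 in DLD-1-miR-Vec cells, against 3160 and 3976 in DLD-1-miR-21 cells. The lines did not overlap, although the DLD-1-miR-Vec arrays differed by 0.82 log2 units (log2 ratio 1.40, SE 0.32, adjusted p = 0.0261 from limma). HOXD12, another limb gene, rose from 28 and 30 to 89 and 73 (PH_hs_0033749, log2 ratio 0.72, SE 0.13, adjusted p = 0.0146). All of these values lay under the olfactory receptor medians, and the added 50 is larger than the signal in DLD-1-miR-Vec cells. The other 7 probes of the cluster did not pass, with log2 ratios from -0.30 for HOXD4 to 0.28 for HOXD9. HOXD13, the hindgut and digit gene at the end, had 133 and 135 against 113 and 98 (adjusted p = 0.176).

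In cluster C only probe b of HOXC5 (PH_hs_0045749), a gene of the neck and upper trunk, passed. It had 2088 and 2033 against 2692 and 3271 (log2 ratio 0.52, SE 0.15, adjusted p = 0.0478 from limma), and its probe a, with 109 and 84 against 106 and 128, did not. HOXC4, which shares the printed window with HOXC5, and HOXC6, the next gene of the cluster, had log2 ratios of -0.22 (adjusted p = 0.526) and 0.01 (adjusted p = 0.982). HOXC11, with 1118 and 472 against 1341 and 1594, had one of 0.955 (adjusted p = 0.126). The remaining probes of the cluster, HOXC8, HOXC9, HOXC10, HOXC12 and HOXC13, had log2 ratios from -0.49 to 0.39.

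Spread between the DLD-1-miR-Vec arrays was uneven among HOX probes. The median difference between arrays of a line was 0.18 log2 units in DLD-1-miR-Vec and 0.25 in DLD-1-miR-21 cells, and 0.15 and 0.19 over all probes. Yet 4 HOX probes differed by more than 1 log2 unit between the DLD-1-miR-Vec arrays, and 0 between the DLD-1-miR-21 arrays. Lower on DLD-1-miR-Vec replicate 2 were HOXB3 probe b (by 1.27), HOXC11 (by 1.16) and HOXC9 (by 1.14), and higher was HOXD9, by 1.41 (354 and 1022). HOXD11 was lower by 0.82 on that array. HOXC11, HOXD11 and probe b of HOXB3 were also higher on both DLD-1-miR-21 arrays than on either DLD-1-miR-Vec array, whereas HOXC9 and HOXD9 were not. The part of this spread in the rise of HOXD11 was not tested.

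Without normalization between arrays 24 HOX probes were lower and 0 higher from limma, also 0 higher at an unadjusted p under 0.05, around a median of -0.92 where all probes had -0.63. Of all probes 44.2% were then lower and 1.31% higher, and 719 probes were higher at an unadjusted p under 0.05. The rises of HOXC5, HOXD11 and HOXD12 rest on normalization, with log2 ratios of -0.76, 0.155 and 0.39 without it. HOXC5 probe b then passed as lower (adjusted p = 0.0494 from limma), and neither HOXD11 nor HOXD12 passed. None of the rises passed in every alternative. With a floor of 64 all 3 missed (adjusted p = 0.0924 for HOXD11, 0.157 for HOXD12 and 0.0721 for HOXC5 probe b, from limma). HOXC5 probe b also missed with cyclic loess (adjusted p = 0.0924), with 32 added in place of 50 (0.053), and with median scaling, where its log2 ratio was 0.18 (0.523). The 11 falls kept their sign in every alternative run, and 10 of them, all but HOXB2, passed in each alternative on all 4 arrays in which they were fitted. When DLD-1-miR-21 replicate 2 was omitted, 0 HOX probes and 0 of all probes passed from limma. At an unadjusted p under 0.05, 11 HOX probes were then lower and 3 higher. Without DLD-1-miR-21 replicate 1, 8 were lower and 0 higher (11 and 3 unadjusted), and without DLD-1-miR-Vec replicate 1 there were 11 and 5. Without DLD-1-miR-Vec replicate 2 the counts were 9 and 2.

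**Figure D4:**
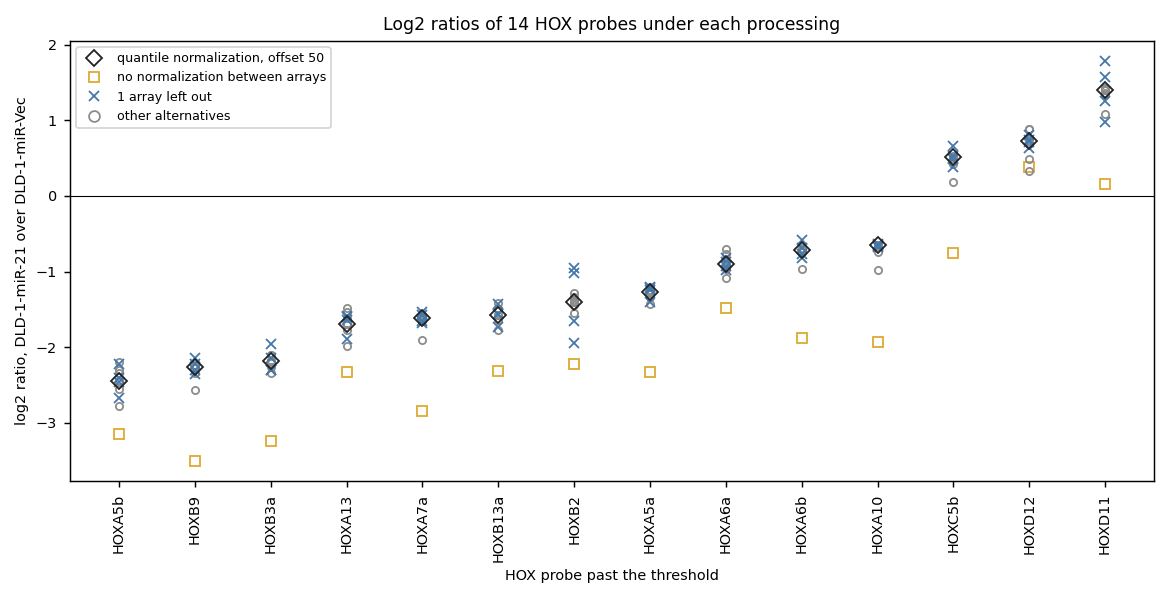
Log2 ratio (DLD-1-miR-21 / DLD-1-miR-Vec) of the 14 HOX probes past the threshold, under quantile normalization with 50 added (black diamonds), without normalization between arrays (yellow squares), with 1 array left out (blue crosses) and under the other alternatives (gray circles). The 11 probes on the left stay below 0 throughout, while HOXC5 probe b turns from 0.52 to -0.76 without normalization.

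The TALE genes encode DNA-binding partners of HOX proteins. For 8 of 9 TALE genes a probe was found. Of these 9 probes 5 fell, 1 rose and 3 did not pass, where 21.8% and 23% of all probes fell and rose, with a median log2 ratio of -0.61. PBX4 fell on both probes, from 1546 and 1417 to 505 and 556 (log2 ratio -1.40, adjusted p = 0.00355 from limma) and from 692 and 671 to 178 and 107 (-1.95, adjusted p = 0.00482). The DLD-1-miR-21 values of the dimmer probe lay below the olfactory receptor medians of those arrays. PKNOX1, which pairs with PBX proteins, fell from 4573 and 4618 to 2129 and 2001 (log2 ratio -1.14, adjusted p = 0.00442). MEIS2 rose from 863 and 740 to 1939 and 1931 (log2 ratio 1.22, adjusted p = 0.00491). In each of these the arrays of a line lay closer together than the lines. The members were chosen with results of these arrays known, and no test of the list was made.

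Of the intestinal regulators, CDX1 rose from 1194 and 1160 to 1846 and 1689 (log2 ratio 0.57, adjusted p = 0.0235 from limma). CDX2 had 7222 and 7437 against 10567 and 9267 and did not pass (log2 ratio 0.43, adjusted p = 0.0564). Among 7 probes of CDX and other ParaHox genes, relatives of the HOX clusters, 1 fell and 2 rose, with a median log2 ratio of 0.42. Of all probes, 21.8% fell and 23% rose. The fall among the ParaHox probes was in 1 probe of PDX1, a pancreas and duodenum factor (log2 ratio -1.81, adjusted p = 0.00519), whose other probe had 0.42 (adjusted p = 0.318). The second rise was GSX1, a factor of the developing brain, from 313 and 306 to 455 and 455 (log2 ratio 0.49, adjusted p = 0.0288).

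Of 21 probes of Polycomb genes 6 fell and 5 rose (median log2 ratio -0.15), shares near the 21.8% and 23% of all probes. EZH2, the methyltransferase that sets the silencing mark, fell from 3227 and 3307 to 1509 and 1387 (log2 ratio -1.15, adjusted p = 0.00459 from limma). PCGF1, of a variant complex, and PHC2, a polyhomeotic subunit, had log2 ratios of -2.10 (adjusted p = 0.00359) and -1.23 (adjusted p = 0.00379). RING1, a ubiquitin ligase subunit, rose from 31993 and 34129 to 61105 and 61586 (log2 ratio 0.89, adjusted p = 0.00727). SUZ12, a core partner of EZH2, had 0.95 (adjusted p = 0.014) and RNF2, another ligase subunit, 1.36 (adjusted p = 0.0217).

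Among MLL complex genes 8 of 16 probes fell and 3 rose (median log2 ratio -0.395), beside 21.8% and 23% of all probes. WDR5, a shared scaffold, fell from 9357 and 10254 to 2891 and 2207 (log2 ratio -1.93, adjusted p = 0.00352 from limma) on one probe, while its other probe had 0.13 (adjusted p = 0.522). MLL, now named KMT2A, the methyltransferase best known for keeping HOX genes on, fell on a probe of 532 and 579 against 148 and 98 (log2 ratio -1.82, adjusted p = 0.00418). The DLD-1-miR-21 values of that probe lay below the olfactory receptor medians of those arrays. DOT1L, which works with MLL fusions in leukemia, had -1.38 (adjusted p = 0.00407). Their other probes had -0.13 (MLL, adjusted p = 0.471, at most 34 on any array) and 0.05 (DOT1L, adjusted p = 0.805). The chromatin tether PSIP1 rose from 5484 and 5809 to 13230 and 11851 (log2 ratio 1.14, adjusted p = 0.00523), and MLL3 and ASH2L had 1.40 (adjusted p = 0.00643) and 0.68 (adjusted p = 0.0449). PSIP1 and MLL3 each fell on their other probe, with log2 ratios of -0.71 (adjusted p = 0.0169) and -0.69 (adjusted p = 0.0262), so neither gene has a settled direction. The MLL3 probe that rose had 116 and 82 against 374 and 311, and the one that fell 2908 and 2955 against 2014 and 1610.

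Of 17 probes of genes beside the clusters 4 fell and 5 rose (median log2 ratio 0.11), again near the 21.8% and 23% of all probes. SKAP2, beside cluster A, had log2 ratios of -1.67 (adjusted p = 0.0095 from limma) and -0.77 (adjusted p = 0.0193) on its probes. HIBADH, past the HOXA13 end, fell from 4571 and 4261 to 2303 and 2014 (log2 ratio -1.02, adjusted p = 0.00721). MTX2 near cluster D fell on 1 probe (log2 ratio -1.91, adjusted p = 0.004) and had -0.34 on the other (adjusted p = 0.08). SMUG1 near cluster C had a rise on 1 of 3 probes (log2 ratio 1.03, adjusted p = 0.00524), and TTLL6 and CALCOCO2 near cluster B had 1.46 (adjusted p = 0.0035) and 0.82 (adjusted p = 0.00869). Chosen after its values were seen, EVX1, a homeobox gene at the HOXA13 end, rose from 213 and 245 to 441 and 466 (log2 ratio 0.85, adjusted p = 0.00986), where HOXA13 fell. PRAC, the neighbor of HOXB13, was chosen likewise. It had 887 and 393 against 1440 and 1840 (log2 ratio 1.38, adjusted p = 0.0477), with the same low DLD-1-miR-Vec replicate 2 as HOXD11.

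Retinoic acid turns on HOX genes of low number in the embryo. Of 17 probes of genes that make, bind or break it down, 2 fell and 4 rose, beside 21.8% and 23% of all probes. Their median log2 ratio was 0.04. The receptor RARA had 1065 and 989 against 1521 and 1376 (log2 ratio 0.48, adjusted p = 0.041 from limma). CYP26A1, which degrades retinoic acid, had 853 and 285 against 1618 and 2115 (log2 ratio 1.79, SE 0.51, adjusted p = 0.0465). The binding protein CRABP2 rose on one probe (log2 ratio 1.07, adjusted p = 0.0116) and fell on the other (-0.99, adjusted p = 0.0154), and ALDH1A3, an enzyme that makes retinoic acid, had 108 and 90 against 47 and 58 (-0.54, adjusted p = 0.0366). RXRG had -0.36 on its probe of smallest p (adjusted p = 0.137).

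Markers of the tissue were checked against the label. Of 13 probes of colorectal epithelium markers, 3 fell and 4 rose, beside 21.8% and 23% of all probes. EPCAM, CDH1, KRT19 and CDX2 lay above the 95th percentile of olfactory receptors on all arrays, while 8 of the 13 probes did so on no array. EPCAM, an epithelial adhesion protein, nevertheless fell from 76640 and 74803 to 33675 and 35734 (log2 ratio -1.12, adjusted p = 0.00455 from limma), and KRT8, a keratin, fell too (-1.17, adjusted p = 0.00725). KRT8 had 479 and 556 against 225 and 182, the latter below the olfactory receptor medians of those arrays. KRT20 (1.28, adjusted p = 0.00527) and VIL1 (1.58, adjusted p = 0.00595), markers of differentiated enterocytes, rose, and CDH17 rose on one probe and fell on the other. The summed intensity of all 13 probes, led by KRT19, was 235799 and 247465 in DLD-1-miR-Vec and 223214 and 226896 in DLD-1-miR-21 cells. Fibroblast markers were higher in 5 of 11 probes, endothelial ones in 2 of 5, leukocyte ones in 3 of 11 and neuronal ones in 1 of 7, where 23% of all probes rose. In these 4 lists 0 probes fell, where 21.8% of all probes did. Log2 ratios below 0 that did not pass included those of 1 DCN probe (-0.72), THY1 (-0.25), CD68 (-0.35) and TEK (-0.27). Above the 95th percentile of olfactory receptors on no array were 11 of 11 fibroblast, 5 of 5 endothelial, 9 of 11 leukocyte and 6 of 7 neuronal probes. The summed intensities of these lists went from 4867 and 3514 to 6531 and 8554 for fibroblasts, from 2024 and 2488 to 3786 and 3612 for endothelium, and from 15555 and 17621 to 27641 and 36939 for leukocytes. For neurons they were 17321 and 17885 against 16933 and 18778. The leukocyte sum is mostly 1 probe of CD3D (10392 and 11229 against 18621 and 26843), whose other probe had at most 48. That bright probe is 1 of the 3 leukocyte rises (log2 ratio 1.05, adjusted p = 0.0199 from limma). Among the other markers CD14 rose from 2064 and 2111 to 5396 and 6053, PDGFRB from 247 and 267 to 620 and 600, and a probe of LUM from 678 and 360 to 1276 and 1690. COL1A1, which made up most of the fibroblast sum, had 3125 and 2068 against 3379 and 4896 and did not pass (adjusted p = 0.125 from limma). PTPRC of leukocytes and COL3A1 of fibroblasts had at most 65 and 24 on any array. The part of these markers in the HOX results was not tested.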

How the data were processed

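Each line, DLD-1-miR-Vec or DLD-1-miR-21, was hybridized to 2 arrays of 1 color. Values deposited for the 31741 probes are on the linear intensity scale, with 250 of them below 0, which shows that background was removed. For the scanner and feature extraction, the sources used here give no detail. Intensities were quantile-normalized, 50 was added, and log2 values were compared with lmFit and eBayes of limma 3.58.1 in R 4.3.3, with residual df of 2, prior df of 2.48, and Benjamini-Hochberg adjustment over all probes. The number of arrays limits the precision. The scripts were tested on simulated arrays.

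Symbols came from the platform annotation, and probes with several symbols named no gene. The HOX genes and the lists of partners, regulators, neighbors and markers were chosen with earlier results of these data known. HOX probes past the threshold, the 8 of highest mean intensity, and both probes of genes with opposite signs and 1 or more past the threshold are named with all values, and of each list up to 3 probes per direction with the smallest p. The symbols MLL2 and MLL4, used for more than 1 gene, were left out. Alternatives were cyclic loess, no normalization, median scaling, other offsets (32 and 100), a floor of 64, robust eBayes with a variance trend, only probes above the dimmest 25% or 50%, the replicate block, 1 probe per gene, and leaving out each array.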

Additional observations from a re-analysis of the deposited data

How the results depend on the processing

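The median log2 ratio of HOX probes was near 0 and moved to -0.085 with cyclic loess, -0.032 with median scaling, -0.088 and 0.083 without the dimmest 25% and 50% of probes, 0.060 on 1 probe per gene and -0.92 without normalization. On 1 probe per gene 6 HOX genes were lower. Without normalization 24 HOX probes were lower and 0 higher, and 14025 and 416 of all probes. With a floor of 64, 0 HOX probes were higher from limma (4 at an unadjusted p under 0.05), and 5450 of all probes (8000 unadjusted). Without the dimmest 50%, where fewer probes are tested, 4324 of all probes were lower and 4685 higher. With 1 array left out, 0 to 11 HOX probes were lower and 0 to 5 higher, their median was -0.12 to 0.063, and 0 to 5978 of all probes were lower and 0 to 6702 higher, with fewer arrays in the fit.

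Without normalization 20 of the 45 HOX probes turned sign, and 8 with median scaling. Among the named ones signs turned without normalization for HOXA11 (-0.99), HOXB5 (-0.87), HOXB7 (-1.06), HOXA7 probe b (-0.92), HOXB3 probe b (-0.022), HOXC5 probe b (-0.76) and HOXB13 probe b (-0.97). They also turned with median scaling for HOXA11 (-0.039), HOXB7 (-0.11) and HOXB13 probe b (-0.032), with cyclic loess for HOXB7 (-0.017), and on leaving out an array for HOXB6 (-0.30 to 0.15 over the arrays left out) and HOXB7 (-0.064 to 0.23). Of these probes only HOXC5 probe b had passed the test, and the cause was not tested. Of 289 values of the 21 named HOX probes under the alternatives, 236 kept direction and side of the threshold, 37 no longer passed, 3 newly passed and 13 turned.

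Arrays of the same number share only a number in the labels, and their deviations from the line means correlated with r = -0.069 across probes. With the replicate block 11 HOX probes were lower and 2 higher, and 5744 and 5678 of all probes. HOXB2 (adjusted p = 0.0633 from limma) and HOXC5 probe b (adjusted p = 0.0889) did not pass with it, and HOXA2 did (adjusted p = 0.0457).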
